A study of Mus musculus with 4 samples.

Results

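The genes described here are the enzymes of sterol synthesis, the SREBP regulators that control their transcription, a sterol carrier and 3 fatty acid enzymes. The set was taken by gene symbol and holds 28 of the 56748 genes in the count table. The study profiled total RNA by sequencing from cultured cells labelled as prostate fibroblasts of male C57BL/6 mice aged 8 to 10 weeks. Its 4 libraries cross 2 factors, PBS or BuOE and radiation or none, so that each of the 4 conditions has 1 library. BuOE is part of the chemical name of BMX-001, the compound in the study's title, a manganese porphyrin that acts as a mimic of superoxide dismutase. The 2 irradiated groups had their pelvis exposed to 37.5 Gy in all, given over 5 days as 7.5 Gy fractions at 1.2 Gy per minute behind lead shielding. Prostates from all 4 groups were minced, digested with type I collagenase and put into culture. The dose and timing of BuOE, whether animals or cultures received it, and the number of animals behind each library are not given in the labels.

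Sterol synthesis starts from acetyl-CoA, passes through mevalonate and the isoprenoid diphosphates to squalene, is closed into the sterol ring of lanosterol and ends, after a series of demethylations and reductions, in cholesterol. Its genes are classic targets of SREBP2 (Srebf2), a transcription factor held in the endoplasmic reticulum by Scap and the Insig proteins while sterols are plentiful, and carried to the Golgi and cut free when sterols run low. SREBP1 (Srebf1) acts more on fatty acid genes such as Fasn. Fibroblasts make sterols for their own membranes, and adipocytes are a rich source of fatty acid synthesis enzymes.

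Nearly the whole pathway was lower in the irradiated library than in its unirradiated partner, with or without BuOE, and lower in the BuOE library than in its PBS partner, with or without radiation. The 19 enzymes from Acat2 to Lbr summed to 1060 CPM (counts scaled to a common library total, here with TMM factors) under PBS, 738 under BuOE, 751 under PBS with irradiation and 550 when BuOE and irradiation were combined. Insig2, one of the sterol sensing retention proteins, ran the other way, from 25.8 CPM in the PBS library to 60.9 CPM in the irradiated BuOE library. The radiation ratios were mostly between 0 and 2-fold lower, and no member was 2-fold lower in either radiation comparison. With 1 library per condition these are differences between libraries, and they have no replicate check.

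Total counts were 29744664 (PBS), 28856043 (BuOE), 35915448 (irradiated PBS) and 24996835 (irradiated BuOE), and 3 counts correspond to between 0.0842 and 0.123 CPM. All 28 members passed the filter of a mean of at least 1 CPM, as did 14365 of all genes. Member means ran from 3.16 CPM (Tm7sf2) to 410 CPM (Fasn), and single counts from 51 to 19003. Ratios are given as log2 of the scaled CPM with a prior count of 2, and the interval beside a ratio is the exact 95% binomial interval of its 2 counts, which covers counting error only. The summed fibroblast markers were between 6813 and 11368 CPM, but epithelial markers were also high in every library, between 3751 and 5777 CPM, with Krt8 between 789 and 1050 CPM. Summed markers of endothelial cells (387 to 626 CPM), pericytes (263 to 403 CPM) and macrophages (314 to 477 CPM) were present throughout. The libraries are therefore mixtures, and fewer cells of a type and less RNA per cell cannot be told apart in them.

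The promoters of 6 members are printed here. SREBP binding sites (sterol regulatory elements) are commonly flanked by sites of the factors NF-Y, which binds CCAAT, and Sp1, which binds GGGCGG. The windows are the 250 bases before the annotated start, from RefSeq on GRCm38.p6, written 5′ to 3′ on the strand of the gene. Capitals mark CACNCCA, TCACNCCAC (the longer form, which contains CACNCCA) and CCAAT, or their reverse complements. The members are Hmgcs1 (chr13:119690101-119690350, + strand), Mvk (chr5:114444019-114444268, + strand), Idi1 (chr13:8885356-8885605, + strand), Fasn (chr11:120824548-120824797, − strand), Insig1 (chr5:28071162-28071411, + strand) and Insig2 at its first listed start (chr1:121332590-121332839, − strand) and its second (chr1:121328025-121328274, − strand). They are shown for the early pathway, for the most abundant member and for the 2 Insig genes, and overlapping matches run together in the capitals.
Hmgcs1: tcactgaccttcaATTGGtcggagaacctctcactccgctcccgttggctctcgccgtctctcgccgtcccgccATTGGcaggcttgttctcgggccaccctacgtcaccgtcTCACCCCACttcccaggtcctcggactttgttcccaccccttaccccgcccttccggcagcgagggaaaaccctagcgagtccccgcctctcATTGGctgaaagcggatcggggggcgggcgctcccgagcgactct
Mvk: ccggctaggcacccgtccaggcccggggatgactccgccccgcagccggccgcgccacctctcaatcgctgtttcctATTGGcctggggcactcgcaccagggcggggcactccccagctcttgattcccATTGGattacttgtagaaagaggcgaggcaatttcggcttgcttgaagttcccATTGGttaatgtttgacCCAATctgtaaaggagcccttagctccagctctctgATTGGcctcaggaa
Idi1: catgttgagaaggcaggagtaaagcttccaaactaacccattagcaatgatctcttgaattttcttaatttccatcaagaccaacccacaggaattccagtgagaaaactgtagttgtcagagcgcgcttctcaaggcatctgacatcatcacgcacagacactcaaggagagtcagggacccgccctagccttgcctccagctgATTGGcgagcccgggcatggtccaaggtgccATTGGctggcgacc
Fasn: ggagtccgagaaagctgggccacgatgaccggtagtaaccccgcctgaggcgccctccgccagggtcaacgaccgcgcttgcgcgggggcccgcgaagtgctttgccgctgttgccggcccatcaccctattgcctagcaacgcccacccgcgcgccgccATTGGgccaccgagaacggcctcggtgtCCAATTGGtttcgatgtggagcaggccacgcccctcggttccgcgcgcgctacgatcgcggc
Insig1: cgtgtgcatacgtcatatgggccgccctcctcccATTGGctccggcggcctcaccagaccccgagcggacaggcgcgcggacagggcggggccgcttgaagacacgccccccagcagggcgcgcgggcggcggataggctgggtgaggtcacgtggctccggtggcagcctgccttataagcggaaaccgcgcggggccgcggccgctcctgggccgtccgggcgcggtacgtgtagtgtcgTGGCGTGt
Insig2, first start: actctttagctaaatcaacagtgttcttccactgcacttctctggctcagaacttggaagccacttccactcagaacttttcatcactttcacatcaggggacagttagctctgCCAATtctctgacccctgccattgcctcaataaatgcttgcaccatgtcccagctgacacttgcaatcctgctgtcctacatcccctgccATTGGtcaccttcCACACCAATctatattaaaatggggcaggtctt
Insig2, second start: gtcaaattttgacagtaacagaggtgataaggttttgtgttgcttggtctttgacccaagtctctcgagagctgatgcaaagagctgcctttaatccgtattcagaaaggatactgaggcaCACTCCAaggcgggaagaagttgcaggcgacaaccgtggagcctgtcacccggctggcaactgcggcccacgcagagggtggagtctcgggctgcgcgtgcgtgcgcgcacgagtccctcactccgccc

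Both strands were searched in the 31 windows listed for 23 members. The CCAAT motif was found in 21 of these windows (20 members) against 33.8% of all 32851 windows of the table, and GGGCGG in 24 windows (21 members) against 32.7%. The window of Mvk holds 5 CCAAT matches and that of Hmgcs1 holds 3, together with the only TCACNCCAC match among the members, a motif found in 1.05% of all windows. CACNCCA was found in 7 windows of 6 members, against 15.6% of all windows, and the E-box CACGTG in 5 windows against 6.02%. Among the Insig genes, the window of Insig1 has 1 CACNCCA, 1 CCAAT, 1 CACGTG and 3 GGGCGG matches. The first window of Insig2 has 3 CCAAT matches and no GGGCGG, and its second has 1 GGGCGG and no CCAAT. Neither motif of the SREBP site was found in the windows of Mvk, Idi1 and Fasn, and that of Fasn also has no GGGCGG. The shares are per window and cover all listed genes, whether or not they are expressed in these libraries. Expressed genes as a group were not compared. A match in these letters is a description of sequence and does not show binding.

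Across the 4 libraries, 25 of the 28 members were highest in the PBS library, against 32.2% of all genes tested, and 24 were lowest in the irradiated BuOE library, against 35.3%. Both held for 23 members, against 20.1% of all genes. The members that were not highest in the PBS library were Tm7sf2, Srebf1 and Insig2, and those not lowest in the irradiated BuOE library were Msmo1, Srebf1, Srebf2 and Insig2. Insig2 alone among the members had the opposite order, lowest in the PBS library and highest in the irradiated BuOE library, as 16.3% of all genes did. The ratio between a member's highest and lowest library had a median of 1.92-fold (from 1.19-fold for Srebf1 to 2.77-fold for Mvk), and the median over all genes tested was 1.51-fold.

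**Figure D1:**
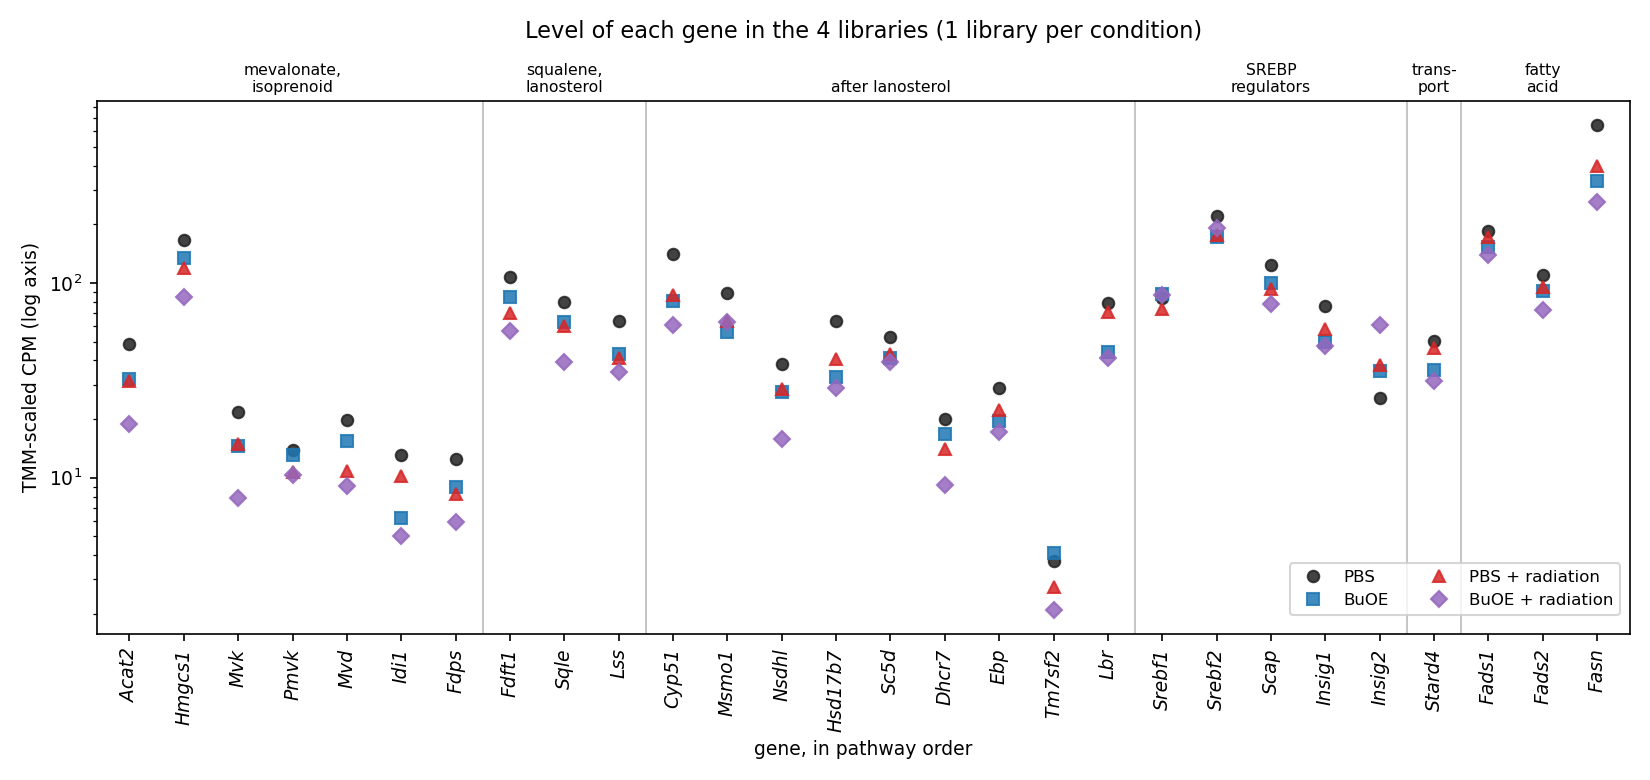
Level of each of the 28 genes in the 4 libraries, in pathway order, as TMM-scaled CPM on a log axis, with 1 point per library. The PBS points lie on top for 25 genes, and Insig2 is the only gene whose PBS point is the lowest and whose irradiated BuOE point is the highest.

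In the PBS arm (irradiated PBS against PBS), 27 of 28 members had a ratio below 0, against 49.6% of the 14365 genes tested. Their median log2 ratio was -0.42, and the median over all genes was 0.00. The counting interval lay wholly below 0 for 27 members, against 29.3% of all genes, and wholly above 0 for Insig2 (30.4% of all genes). No member was at least 2-fold lower (1.02% of all genes) or higher (5.62%). In the BuOE arm (irradiated BuOE against BuOE), which shares no library with the PBS arm, 25 of 28 members had a ratio below 0, against 53.8% of all genes, although with upper-quartile scaling that number was 21. The median was -0.33, beside -0.03 over all genes, and the interval lay wholly below 0 for 20 members (34.3% of all genes) and above 0 for Msmo1, Srebf2 and Insig2 (29.6%). No member was at least 2-fold lower (4.94% of all genes) or higher (2.27%) in this arm. A ratio below 0 in both arms was found for 25 members and for 30.5% of all genes.

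BuOE against PBS gave a like count. Without radiation, 25 of 28 members were below 0 in the BuOE library (51.2% of all genes), with a median of -0.42 beside -0.01 over all genes, and the interval was wholly below 0 for 24 (36.1%) and above 0 for Insig2 (33.9%). After radiation, 25 members were again below 0 (56.2% of all genes), with a median of -0.39 beside -0.07, and the interval was wholly below 0 for 22 (40.4%) and above 0 for Srebf1, Srebf2 and Insig2 (29.9%). Idi1 was the 1 member at least 2-fold lower in each of the 2 BuOE comparisons, a size reached by 4.23% of all genes without radiation and by 5.92% after it. Both intervals of Idi1 include 2-fold, and the call was lost without radiation when library size alone was used, after radiation with DESeq2 size factors or upper-quartile factors, and in both with a filter of 10 CPM, which Idi1 does not pass. No member was at least 2-fold higher, against 8.72% of all genes without radiation and 3.81% after it. A ratio below 0 in both BuOE comparisons was found for 24 members and for 37.4% of all genes. Each BuOE comparison shares its libraries with the radiation comparisons, so the counts of the 4 comparisons are not independent of each other.

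**Figure D2:**
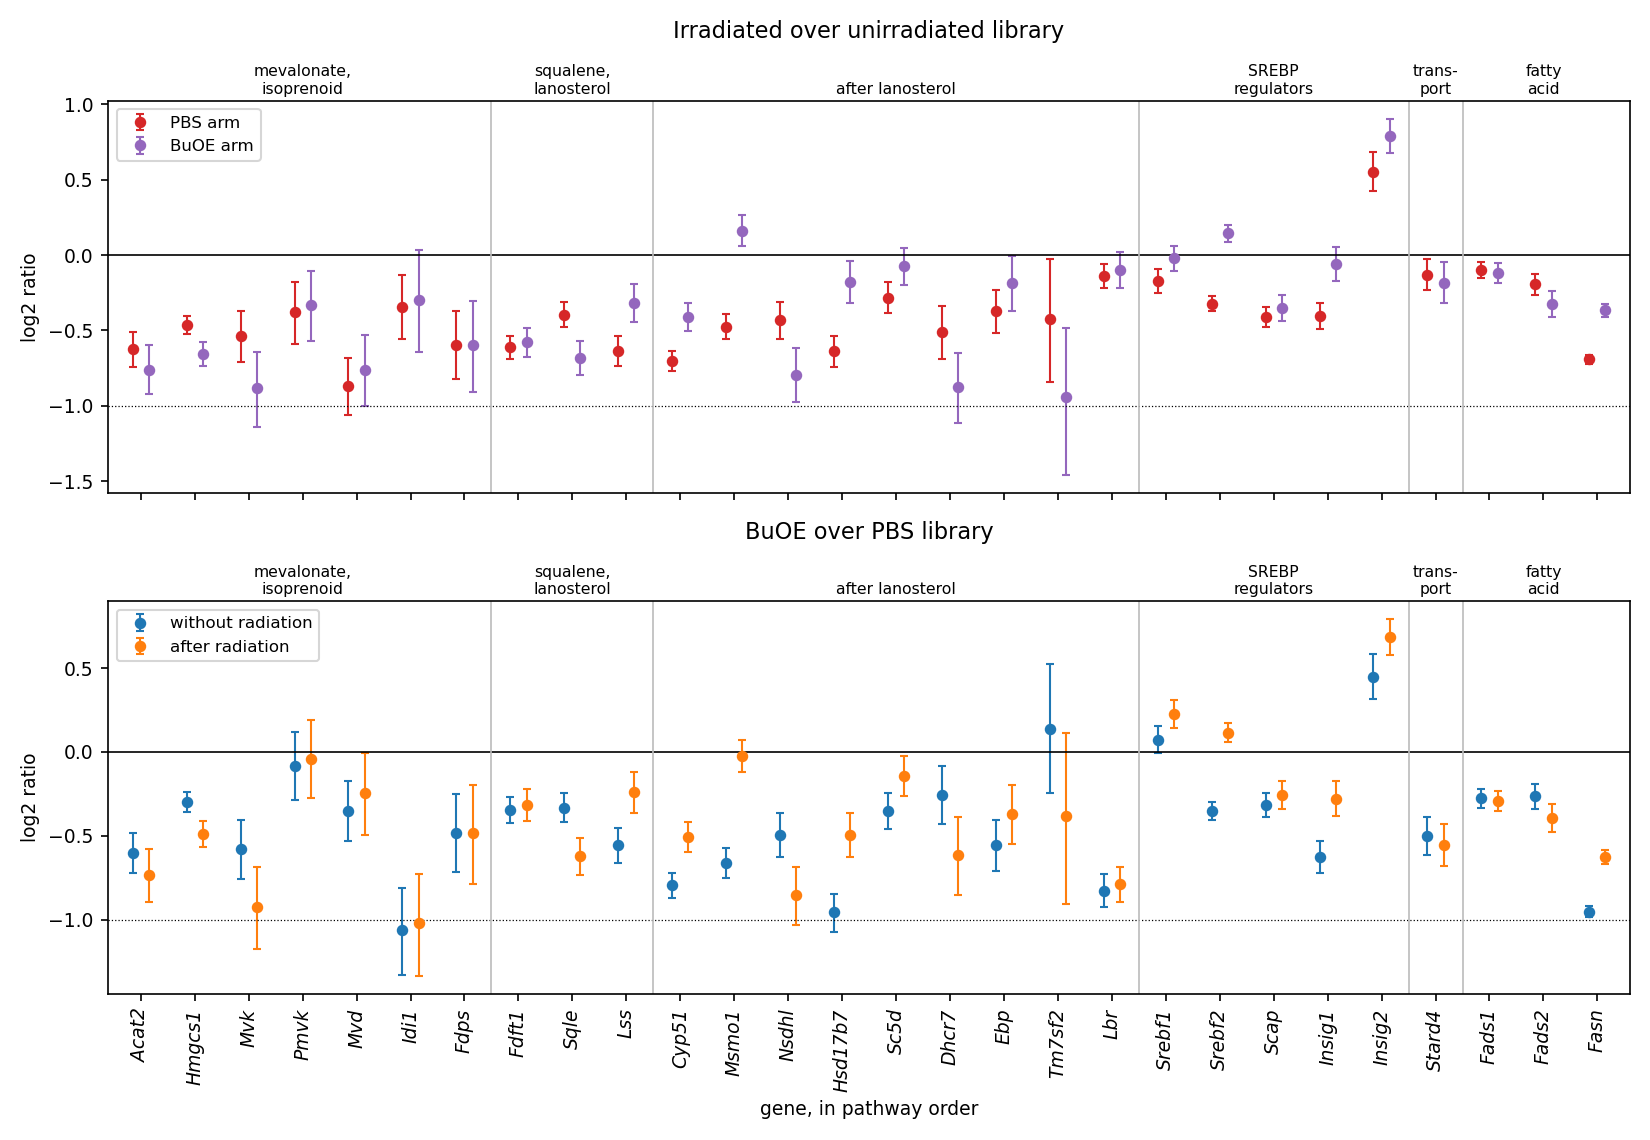
Log2 ratios of each gene with 95% counting intervals, for irradiated over unirradiated libraries (upper plot) and BuOE over PBS libraries (lower plot). The dotted lines mark a 2-fold lower level, which only the point of Idi1 passes, in both BuOE comparisons with this scaling and with an interval on both sides of the line, and Insig2 lies above 0 in all 4.

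The 7 enzymes of the mevalonate and isoprenoid steps were below 0 in all 4 comparisons. Their summed level was 295 CPM under PBS, 224 under BuOE, 206 under PBS with irradiation and 142 with both treatments. Hmgcs1, the synthase that commits acetyl units to the pathway by making HMG-CoA, is the most abundant of them. It was at 165, 134, 119 and 85.2 CPM under PBS, BuOE, PBS with irradiation and both treatments, the order kept from here on. The 4 levels of Hmgcs1 are all apart, with log2 radiation ratios of -0.47 (-0.53 to -0.41) in the PBS arm and -0.66 (-0.73 to -0.58) in the BuOE arm. Mvk, the kinase that adds the first phosphate to mevalonate, was at 21.7, 14.5, 14.9 and 7.82 CPM, so the BuOE library and the irradiated PBS library were level and the library with both was the lowest. Its log2 ratios were -0.54 (-0.71 to -0.37) for radiation without BuOE and -0.88 (-1.14 to -0.64) with it. Acat2, the thiolase of the first step, had the same shape, at 48.6, 32.0, 31.5 and 18.9 CPM, but 65.6% of its transcript matches Acat3 or Tcp1 at 95% identity or more, so its counts may be shared with these genes.

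Mvd, the decarboxylase that yields isopentenyl diphosphate, had the lowest radiation ratio of all members in the PBS arm. It was at 19.8, 15.5, 10.8 and 9.10 CPM, and its log2 radiation ratios were -0.87 (-1.06 to -0.68) in the PBS arm and -0.76 in the BuOE arm. Only 1.37% of all genes had a ratio at or below that of Mvd in the PBS arm. The 2 irradiated libraries were both below the 2 unirradiated ones. Idi1, the isomerase that makes dimethylallyl diphosphate, split the libraries the other way, at 13.0, 6.20, 10.2 and 5.02 CPM. Both BuOE libraries were below both PBS libraries, with log2 BuOE ratios of -1.06 (-1.33 to -0.81) without radiation and -1.02 (-1.34 to -0.73) after it. The radiation ratio of Idi1 was smaller, -0.34 in the PBS arm and -0.30 (-0.65 to 0.03) in the BuOE arm. Of the Idi1 transcript, 22.6% is matched by 2 other genes, Gm13502 and Gm35570. Fdps, the farnesyl diphosphate synthase, was at 12.5, 8.94, 8.25 and 5.89 CPM, with 76.8% of its transcript matched by 5 other genes. Pmvk, the second kinase, was at 13.9, 13.1, 10.7 and 10.4 CPM, and its BuOE ratios had intervals that include 0.

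At the squalene and lanosterol steps all 3 enzymes were below 0 in all 4 comparisons. Fdft1, the squalene synthase and the first enzyme committed to sterols, was at 107, 84.3, 70.1 and 56.4 CPM. Its log2 radiation ratio was nearly the same in the 2 arms, -0.61 (-0.69 to -0.53) and -0.58 (-0.68 to -0.48). Sqle, the squalene epoxidase, was at 79.5, 63.1, 60.4 and 39.3 CPM, and its radiation ratio was -0.40 in the PBS arm and -0.68 in the BuOE arm. Lss, which closes the ring to lanosterol, was at 63.8, 43.4, 41.1 and 34.7 CPM and had the opposite arrangement, -0.64 in the PBS arm and -0.32 in the BuOE arm. The difference between the arms (the BuOE arm ratio minus the PBS arm ratio) was -0.29 (-0.43 to -0.15) for Sqle and 0.32 (0.16 to 0.47) for Lss. Part of the Fdft1 transcript, 33.7%, matches the predicted gene Gm6781, and 18.3% of its exon bases overlap Ctsb on the opposite strand.

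The 9 enzymes after lanosterol were less uniform. In the PBS arm all 9 had radiation ratios below 0 with a median of -0.43, and in the BuOE arm 8 did, with a median of -0.19. The BuOE arm median was -0.30 with library size alone and -0.071 with upper-quartile scaling, where 6 of 9 were below 0. Cyp51, the lanosterol demethylase, was at 141, 81.0, 86.4 and 60.9 CPM, with the PBS library well above the other 3. Its log2 radiation ratio was -0.70 (-0.77 to -0.64) in the PBS arm and -0.41 (-0.51 to -0.32) in the BuOE arm. Msmo1, the methylsterol oxidase of the later demethylation steps, was at 88.7, 56.1, 63.8 and 62.8 CPM. Its PBS library stood alone above 3 libraries at similar levels, and its radiation ratio was -0.47 (-0.56 to -0.39) in the PBS arm and 0.16 (0.06 to 0.26) in the BuOE arm. Hsd17b7, the ketosteroid reductase of the same demethylation complex, was at 63.6, 32.7, 40.8 and 28.9 CPM. The BuOE ratio of Hsd17b7 was -0.96 (-1.07 to -0.85) without radiation and -0.50 (-0.63 to -0.37) after it.

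Nsdhl, the dehydrogenase that works between Msmo1 and Hsd17b7, did not share their shape. It was at 38.6, 27.4, 28.5 and 15.8 CPM, like Mvk with the library of both treatments the lowest, and its radiation ratios were -0.43 in the PBS arm and -0.79 (-0.97 to -0.62) in the BuOE arm. Dhcr7, the reductase of the last step, was at 20.1, 16.8, 14.0 and 9.14 CPM, with radiation ratios of -0.51 and -0.87. Ebp and Sc5d had smaller radiation ratios than Nsdhl and Dhcr7 in both arms. Ebp, the sterol isomerase, was at 28.8, 19.6, 22.3 and 17.2 CPM, and the desaturase Sc5d at 52.7, 41.3, 43.3 and 39.3 CPM. The sterol ring reductase step, which follows Cyp51, can be run by either of 2 proteins, Lbr and Tm7sf2. Lbr, which is also an inner nuclear membrane protein, was at 78.5, 44.2, 71.3 and 41.2 CPM. Both BuOE libraries of Lbr were well below both PBS libraries, with log2 ratios of -0.83 (-0.93 to -0.73) and -0.79 (-0.90 to -0.68), while radiation gave -0.14 and -0.10. Tm7sf2, the least abundant member, was at 3.71, 4.09, 2.75 and 2.10 CPM, and its 2 BuOE intervals include 0. Its radiation ratio was -0.42 (-0.84 to -0.03) in the PBS arm and -0.94 (-1.46 to -0.48) in the BuOE arm, the lowest of all members there and with the widest interval. Of the Tm7sf2 exon bases, 12.1% overlap Vps51.

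The 5 regulators were the group with the most mixed directions. Srebf2, which encodes the factor that drives the sterol genes, was at 221, 173, 176 and 191 CPM. The PBS library of Srebf2 was the highest, and the library with both treatments lay above each single treatment. Its log2 radiation ratio was -0.32 (-0.37 to -0.27) in the PBS arm and 0.14 (0.09 to 0.20) in the BuOE arm. Srebf1 varied least of all members, at 83.3, 87.7, 73.9 and 86.3 CPM, with only the irradiated PBS library set apart below the others. Scap, the sterol sensing escort of the SREBPs, was at 124, 99.4, 93.2 and 78.0 CPM. It followed the enzymes, with ratios between -0.41 and -0.26 in the 4 comparisons.

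The 2 Insig genes, whose products hold Scap in the endoplasmic reticulum, had ratios of opposite sign, but for radiation in the BuOE arm that of Insig1 was near 0. Insig1, itself a well known SREBP target, was at 76.4, 49.6, 57.7 and 47.5 CPM, highest in the PBS library. Its log2 radiation ratio was -0.41 (-0.49 to -0.32) in the PBS arm and -0.06 (-0.17 to 0.05) in the BuOE arm, where upper-quartile scaling turned it to 0.056, and its BuOE ratio was -0.62 without radiation and -0.28 after it. Insig2 was at 25.8, 35.2, 37.9 and 60.9 CPM, so each treatment alone was above the PBS library and the library with both was above all others. Its log2 radiation ratio was 0.55 (0.43 to 0.68) in the PBS arm and 0.79 (0.68 to 0.91) in the BuOE arm, and its BuOE ratio 0.45 (0.31 to 0.59) and 0.68 (0.58 to 0.79). Those radiation ratios placed Insig2 at or above 88.6% and 95.7% of all genes tested. Per kilobase of exon, Insig1 was above Insig2 in the PBS library (24.7 against 7.42 CPM per kb), as it was under BuOE (16.0 against 10.1) and with irradiation under PBS (18.6 against 10.9). In the irradiated BuOE library the order was turned, with Insig1 at 15.4 and Insig2 at 17.5 CPM per kb. A short stretch of Insig1, 7.01% of its transcript, is matched by another annotated gene.

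**Figure D3:**
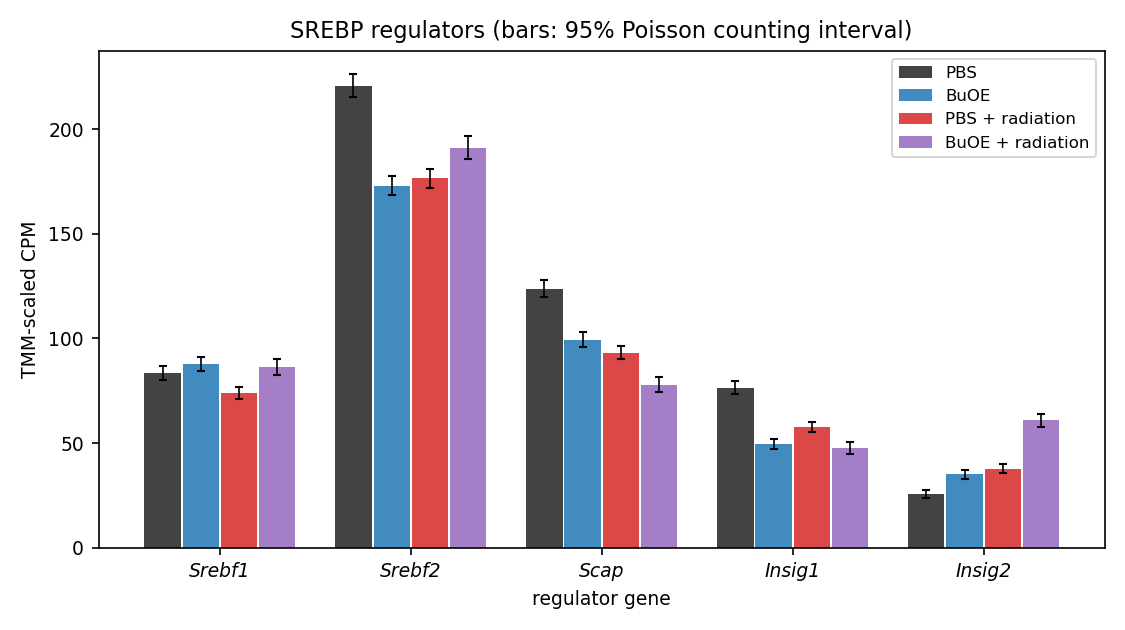
TMM-scaled CPM of the 5 regulator genes in each of the 4 libraries, with bars from 0 and 95% Poisson counting intervals. Insig2 climbs from 25.8 in PBS to 60.9 with both treatments while Insig1 goes from 76.4 to 47.5, and Srebf2 is lower with either treatment alone than with both.

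Stard4, a carrier that moves cholesterol between membranes and is a known SREBP2 target, resembled Lbr in its split by BuOE. It was at 50.5, 35.7, 46.1 and 31.4 CPM, with BuOE ratios of -0.50 and -0.55 and radiation ratios of -0.13 and -0.18. Fasn, the fatty acid synthase, was the most abundant member and had the largest difference in CPM. It was at 647, 335, 401 and 259 CPM, so the PBS library was far above the other 3, and its log2 ratios ran from -0.95 (-0.99 to -0.92) for BuOE without radiation to -0.37 (-0.41 to -0.32) for radiation in the BuOE arm. Fads1 and Fads2, the desaturases that make long polyunsaturated fatty acids, differed less. Fads1 was at 184, 152, 172 and 140 CPM and Fads2 at 109, 91.0, 95.6 and 72.6 CPM, with all ratios of the 2 genes between -0.10 and -0.40.

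The radiation ratios of the 2 arms come from separate libraries and can be set beside each other. Across the 28 members their Pearson correlation was 0.69 and their Spearman correlation 0.57, and without Insig2, the point farthest from the rest, 0.48 and 0.52 over 27. These are descriptions across genes that share the 4 libraries and their scaling. The difference between the arms had a median of 0.04 over the members, beside -0.03 over all genes, with 11 members below 0 against 53.0% of all genes. With library size alone in place of TMM that median was -0.075 and 17 members were below 0, so the members as a whole have no settled direction between the arms. Within the set, the counting interval of the difference was wholly above 0 for 10 members (26.3% of all genes) and wholly below 0 for 6 (31.0%). The members above were Lss, Cyp51, Msmo1, Hsd17b7, Sc5d, Srebf1, Srebf2, Insig1, Insig2 and Fasn, and those below Hmgcs1, Mvk, Sqle, Nsdhl, Dhcr7 and Fads2. Msmo1 had the highest difference, 0.64 (0.51 to 0.77). No test of these differences is possible in a design with 1 library in each cell.

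**Figure D4:**
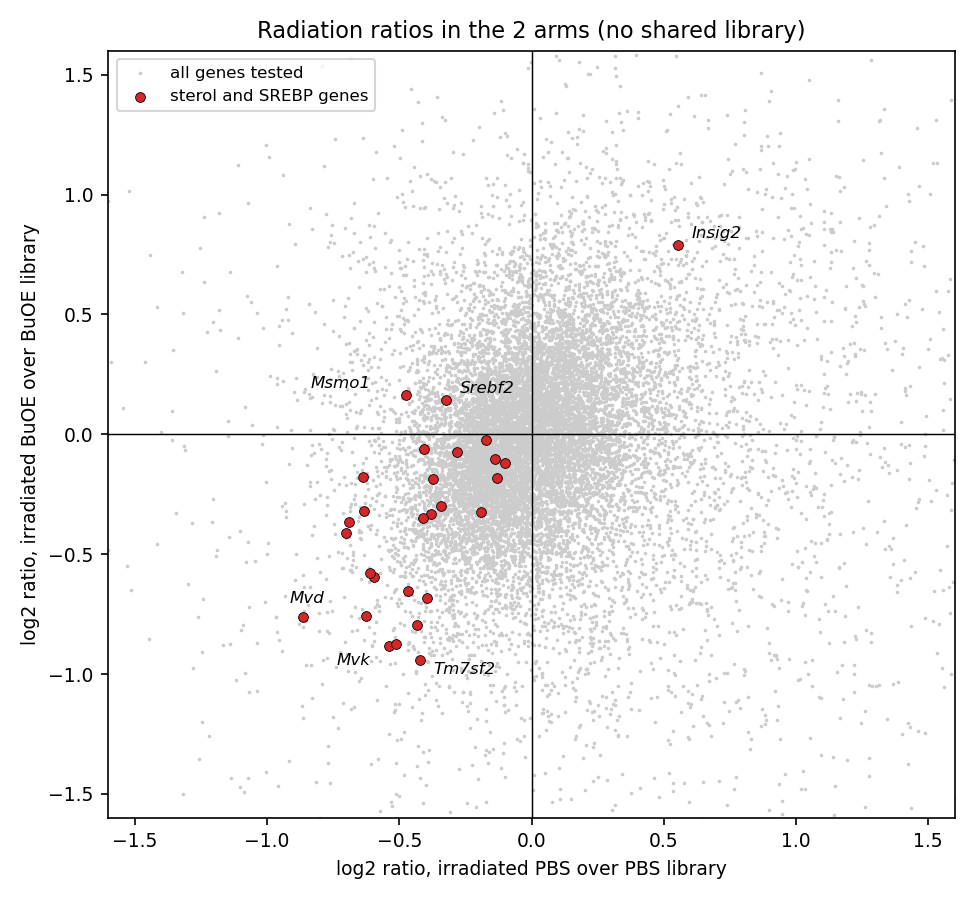
Log2 radiation ratio in the PBS arm (horizontal) against the BuOE arm (vertical) for the 28 genes (red) and all genes tested (grey), with 636 genes outside the axes. Of the red points, 25 lie at the lower left of both zero lines, Msmo1 and Srebf2 lie above the horizontal line and Insig2 lies at the upper right.

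Compared per kilobase of exon, the mean level over the 4 libraries was highest for Fasn (37.5 CPM per kb), Fads1 (33.6), Fads2 and Hmgcs1 (27.4), followed by Srebf2 (26.5) and Cyp51 (20.9). At the lower end were Dhcr7 (2.58), Idi1 (2.46), Fdps (2.11) and Tm7sf2 (0.718). The low end thus holds enzymes from both the isoprenoid and the late steps. Hmgcs1 and Mvk, far apart in abundance among the mevalonate enzymes, both had lower radiation ratios in the BuOE arm than in the PBS arm.

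Related genes were described in 4 lists. Of 15 genes of fatty acid and lipid synthesis, 13 passed the filter. For radiation, 10 were below 0 in the PBS arm (49.6% of all genes) and 9 in the BuOE arm (53.8%). For BuOE, 11 were below 0 without radiation (51.2% of all genes) and 9 after it (56.2%). In each BuOE comparison 1 gene of the list was at least 2-fold higher (8.72% of all genes without radiation and 3.81% after it). Without radiation 1 was at least 2-fold lower (4.23% of all genes), and after it none was (5.92%). Scd1, the stearoyl-CoA desaturase and a joint target of SREBP1 and LXR, differed most. It was at 1350, 302, 295 and 236 CPM, so the PBS library alone was more than 4-fold above each of the others. Its log2 ratios were -2.19 (-2.23 to -2.16) for radiation in the PBS arm and -2.16 for BuOE without radiation, but -0.36 and -0.32 in the 2 comparisons that do not use the PBS library. Scd2, a related desaturase, was at 743, 732, 570 and 412 CPM and did not show that split. Elovl5, an elongase, had the highest radiation ratio of the list in the PBS arm, 0.33.

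The 10 genes of SREBP processing and sterol-regulated degradation had radiation ratios on both sides of 0. In the PBS arm the interval was wholly below 0 for 6 (29.3% of all genes) and wholly above 0 for 4 (30.4%). The ratios there ran from -0.30 to 0.55. Their median log2 ratio was -0.09 in the PBS arm (6 below 0, against 49.6% of all genes). In the BuOE arm it was -0.07 (6 below 0, against 53.8%), and 0.05 with upper-quartile scaling. For BuOE the median was -0.15 without radiation (8 below 0, against 51.2% of all genes) and -0.33 after it (9 below 0, against 56.2%). Mbtps1, the Golgi protease that makes the first cut in SREBPs, was at 184, 164, 169 and 118 CPM, lowest in the irradiated BuOE library. Rnf139, a ubiquitin ligase, had the highest radiation ratio of the list in the PBS arm, 0.55.

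Beyond farnesyl diphosphate, the isoprenoid branch that feeds protein prenylation, dolichol and ubiquinone had mixed directions. The 9 genes of the branch summed to 369, 348, 384 and 384 CPM, and their median radiation ratios were 0.01 and -0.05, both of which change sign with the scaling. For BuOE the medians were -0.14 without radiation and -0.09 after it, the second 0.05 with upper-quartile scaling. In each, 6 of 9 were below 0, against 51.2% and 56.2% of all genes. The difference from the sterol enzymes was not tested. Ggps1, which makes geranylgeranyl diphosphate, was at 40.2, 47.5, 51.1 and 51.9 CPM, lowest in the PBS library. Nus1, a subunit of the dolichol-making prenyltransferase, was at 117, 106, 134 and 148 CPM. Fntb, the farnesyltransferase subunit, had the lowest radiation ratio of the branch in the PBS arm, -0.35.

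The 16 genes of LXR signalling, efflux, esterification and oxysterols had median ratios of -0.10, 0.07, 0.06 and 0.22 for radiation in the PBS arm, radiation in the BuOE arm, BuOE without radiation and BuOE after radiation, and the second is -0.04 with library size alone. Soat1, which esterifies cholesterol for storage, was at 542, 218, 338 and 262 CPM, with the PBS library far the highest. Npc2, a lysosomal cholesterol carrier, was at 415, 276, 333 and 384 CPM, lowest in the BuOE library. Abca1, the cholesterol exporter and an LXR target, was chosen after its values were seen. It was at 107, 303, 223 and 223 CPM, lowest in the PBS library, highest in the BuOE library and level in the 2 irradiated libraries.

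Levels of adipocyte markers moved with the PBS library. The 8 markers summed to 574 CPM there and to 178, 196 and 224 CPM in the BuOE, irradiated PBS and irradiated BuOE libraries. Plin1, the coat protein of fat droplets, was at 28.9, 0.693, 0.926 and 2.30 CPM, and Fabp4, a fatty acid carrier, at 208, 30.6, 61.1 and 56.8 CPM. Adipoq was at 5.76 CPM in the PBS library and at 0 in the BuOE library, and Lep was at 0 in both BuOE libraries. All 7 adipocyte markers that passed the filter were below 0 for radiation in the PBS arm (49.6% of all genes), with a median of -3.09. All 7 were also below 0 for BuOE without radiation (51.2% of all genes), with a median of -2.76. The interval of Pparg for radiation in the PBS arm includes 0. In the BuOE arm the same 7 were above 0, with a median of 1.17 and an interval wholly above 0 for 5 (29.6% of all genes). For BuOE after radiation 6 of 7 were above 0, with a median of 0.85. The interval there was wholly above 0 for 5 (29.9% of all genes) and wholly below 0 for 1 (40.4%). In each of these 2 comparisons 25 of 28 sterol and SREBP genes were below 0, against 53.8% and 56.2% of all genes. For radiation in the BuOE arm that number was smaller with upper-quartile scaling. Adipoq (0 and 4), Cidec (6 and 21) and Plin1 (21 and 56) had few counts in the BuOE and irradiated BuOE libraries. The part of fat cells in the sterol gene ratios was not tested in any of the 4 comparisons.

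Other marker lists moved as well. Fibroblast markers summed to 8776, 7892, 11368 and 6813 CPM, with median ratios of 0.49 for radiation in the PBS arm and -0.54 in the BuOE arm. Epithelial markers summed to 4430, 5411, 3751 and 5777 CPM and were higher in the BuOE library of each pair. Prostate secretory markers summed to 785, 548, 557 and 208 CPM, but the order of that sum is set by Sbp alone, at 757, 428, 439 and 12.8 CPM. Sbp was below 0 for radiation in the PBS arm and for BuOE without it. In both of these comparisons 5 of the 6 markers were above 0. Neuron markers, at 7.87, 301, 92.9 and 17.8 CPM, and Schwann cell markers, at 40.9, 276, 137 and 104 CPM, were lowest in the PBS library. The part of these lists in the sterol gene ratios was not tested.

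**Figure D5:**
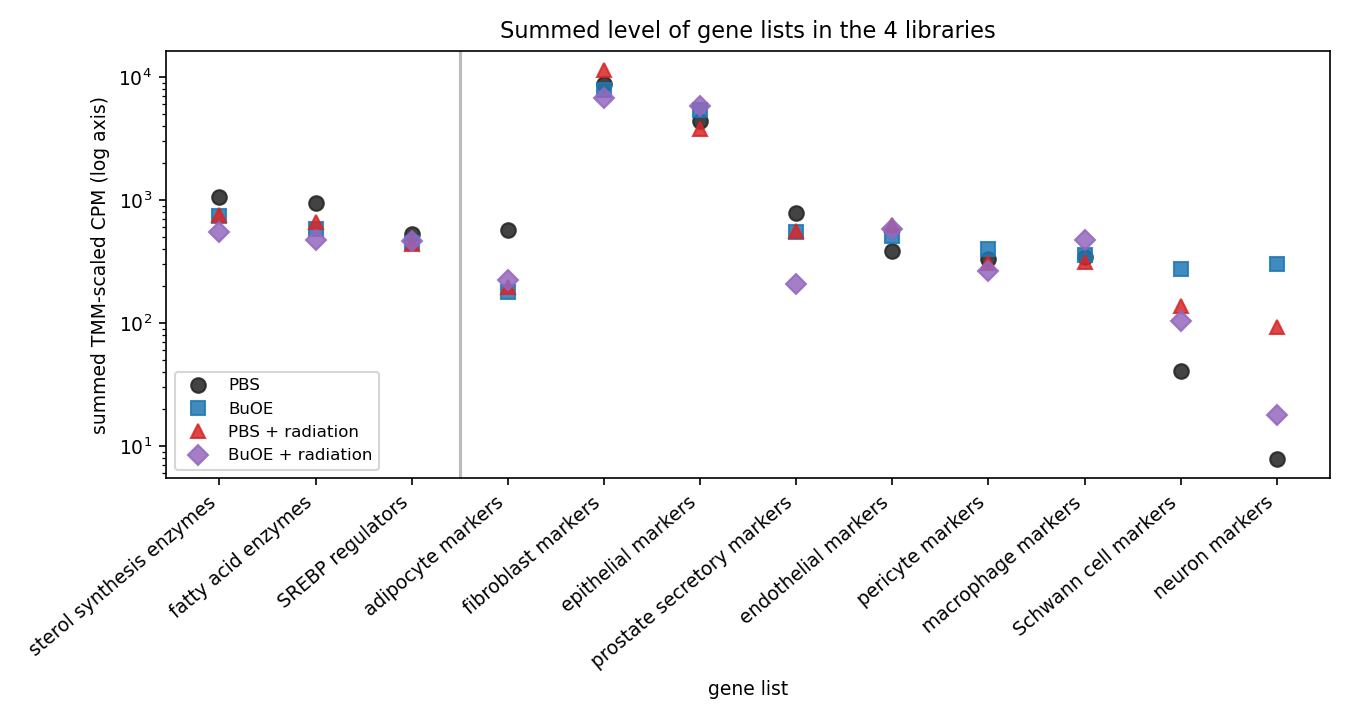
Summed TMM-scaled CPM of gene lists in the 4 libraries on a log axis, with sterol and fatty acid enzymes and regulators left of the line and cell type markers right of it. The adipocyte sum is 574 in PBS and 178 to 224 in the other 3 libraries, and the sterol enzyme sum goes from 1060 to 550.

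A test across conditions can be had only from a model with the 2 factors and no interaction, which leaves 1 residual degree of freedom and takes the interaction as error. In edgeR's quasi-likelihood test with Benjamini-Hochberg adjustment over 14365 genes, no gene passed 0.05 for radiation or for BuOE, and so 0 members did. At an unadjusted p under 0.05 there were 1076 genes for radiation, among them 13 members lower (3.31% of all genes) and Insig2 higher (4.18%). For BuOE there were 2954 genes, with 15 members lower (11.5% of all genes) and again Insig2 higher (9.06%). The members' adjusted p ran from 0.663 to 0.894 for radiation and from 0.0994 to 0.875 for BuOE. Insig2 had fitted log2 changes of 0.67 for radiation (adjusted p = 0.663) and 0.57 for BuOE (adjusted p = 0.162), and it was above 0 in all 4 comparisons. Lbr had the lowest adjusted p for BuOE, 0.0994, with a fitted change of -0.81.

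DESeq2 on the same model gave 0 members for radiation. At an unadjusted p under 0.05 it gave 10 members, beside 652 of all 14365 genes. For BuOE it gave 3 members lower, against 3.47% of all genes. These were Fasn (-0.79, adjusted p = 0.00161), Lbr (-0.81, adjusted p = 0.00827) and Cyp51 (-0.65, adjusted p = 0.0446). With limma-voom no gene passed for either factor, and 14 members had an unadjusted p under 0.05 for each. Of all 14365 genes, 1057 did for radiation and 2952 for BuOE. The calls for BuOE thus depend on the tool, and they also depend on the filter. Each member named was below 0 in both BuOE comparisons. Those ratios, like the ratios of Insig2, come from the same counts as the model and are no separate support for it.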

How the data were processed

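Total RNA from 4 libraries, 1 per condition, was analysed from the deposited table of raw read counts per gene. Per the submitters' processing notes, the authors counted reads with featureCounts on build GRCm39; Trim Galore 0.6.4, FastQC, Salmon 1.4.0 and edgeR 4.2.2 are listed there with no role. Strand and multi-mapping settings are not given in the sources used here. Genes with near-identical copies or overlapping exons are therefore uncertain. Among the members, the largest shares of exon bases overlapping another gene were in Fdps (26.7%), Fdft1 (18.3%), Scap (13.2%), Hmgcs1 (12.1%) and Tm7sf2 (12.1%). Groups were taken from the treatment in the labels.

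Symbols came from GENCODE M21 (GRCm38) through the Ensembl IDs, and 4675 of 56748 IDs had none. Exon lengths came from the same annotation, near-identical copies from blastn 2.17.0 (at least 95% identity over 100 bases) and promoter windows from RefSeq. Counts were scaled with TMM (edgeR 4.0.16, R 4.3.3), with factors of 0.987, 1.05, 0.992 and 0.972 for the PBS, BuOE, irradiated PBS and irradiated BuOE libraries. The filter was a mean of 1 CPM or more. Comparisons of 2 libraries have no test, and the additive model was tested with edgeR, with DESeq2 1.42.0 and limma 3.58.1 as alternatives. The ratios and the edgeR test were checked on simulated counts without interaction between the factors, with a pass required only for counting error alone. That check cannot show how the edgeR test behaves on these libraries, where the interaction is taken as error. With 1 library per condition, a p-value of the additive model rests on the interaction as its only residual and on dispersion shared across genes. It does not measure a spread between replicates, and whether the libraries come from separate animals is not known. The members and the gene lists were chosen with earlier results of these data known. Of other genes, those named are the 2 most abundant of each list, those with its highest and lowest radiation ratio in the PBS arm and markers at 0, with Abca1 and the example markers added after values were seen. Some genes that this rule names are not reported here.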

Additional observations from a re-analysis of the deposited data

Results flagged for a closer look

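Some genes had ratios of opposite sign between the 2 arms or between the 2 radiation states, with both counting intervals clear of 0. The difference was not tested in any of them, since each ratio rests on 2 libraries. Among the members, the log2 radiation ratio of Msmo1 was -0.47 in the PBS arm and 0.16 in the BuOE arm. That of Srebf2 was -0.32 in the PBS arm and 0.14 in the BuOE arm, and its BuOE ratio was -0.35 without radiation and 0.12 after it. Among the other genes named in the report, Nus1 had BuOE ratios of -0.14 without radiation and 0.15 after it. Npc2 had radiation ratios of -0.32 and 0.48 in the PBS and BuOE arms and BuOE ratios of -0.59 without radiation and 0.20 after it. Soat1 had radiation ratios of -0.68 in the PBS arm and 0.27 in the BuOE arm. Cyp7b1, an oxysterol hydroxylase with low counts (1.26, 3.63, 5.70 and 2.18 CPM), had radiation ratios of 2.12 and -0.72 and BuOE ratios of 1.48 without radiation and -1.36 after it. Abca1, chosen after its values were seen, had radiation ratios of 1.06 in the PBS arm and -0.44 in the BuOE arm.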

How the results depend on the processing

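Other scalings, filters and a smaller prior count left 147 of the summary values and 607 of the values of single genes without a marked move, and moved 20 and 53. With library size alone the median over all genes shifted by -0.11 for radiation in the BuOE arm and by -0.12 for the difference between the arms, and with upper-quartile factors by 0.12 for radiation in the BuOE arm, 0.14 for BuOE after radiation and 0.15 for the difference. For radiation in the BuOE arm the members' median was -0.44 with library size alone (-0.15 over all genes), with 1 member 2-fold lower, and -0.21 with upper-quartile factors (0.08 over all genes). With library size alone the difference between the arms had a median of -0.075, with 17 members below 0. That median was the 1 summary value of all members that changed sign. With upper-quartile factors 6 members were below 0. Some single ratios with intervals that include 0 also changed sign. These were Insig1, Lbr, Sc5d and Srebf1 for radiation in the BuOE arm, Pmvk for BuOE without and after radiation, and Msmo1 for BuOE after radiation. The 1 member 2-fold lower under BuOE, Idi1, became 0 without radiation with library size alone or at least 10 CPM, and 0 after radiation with DESeq2 size factors, upper-quartile factors or at least 10 CPM, a filter that Idi1 does not pass. In the additive model, DESeq2 called 31 genes lower and 69 higher for radiation, and 498 lower and 385 higher for BuOE, with 3 members lower. With edgeR at a mean of at least 10 CPM, 269 genes were lower and 131 higher for BuOE, with 1 member, Lbr, lower (adjusted p = 0.0475), and with no filter 194 were lower and 89 higher. No paired analysis was possible because each group has 1 library, so the groups share fewer than 2 replicate numbers, and no library could be left out. Depth limits Tm7sf2, whose lowest count was 51, and Idi1, Fdps and Mvk more than the other members.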
